A study of Mus musculus with 45 samples.

Results

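The distance that RNA polymerase II (RNAPII) had travelled 5 min after release from a transcriptional block was compared between slow/slow and WT/WT mouse embryonic stem cells (ESCs) over long transcripts. The transcripts were all those of at least 20 kb, from start to end, with a wave-front boundary in each of the 3 WT/WT and 3 slow/slow samples harvested at 5 min. These were 25990 of the 122968 transcripts in the tables, and of the 35031 that were at least 20 kb long. They belonged to 8440 genes and 23193 transcription start sites, and 18391 were annotated as protein coding, so that isoforms of a gene often share a start and are not independent measurements.

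All cells were ESCs grown in 2i medium, and the genotypes differ in Polr2a, which encodes the largest subunit of RNAPII. WT/WT cells carry no mutation, WT/slow cells carry the R749H substitution on 1 allele (Polr2a[wt/R749H]), and slow/slow cells on both endogenous alleles. The mutation was introduced into the endogenous locus, so that it acts in every cell from the native promoter. The sources used here do not say how many clones stand behind each genotype. Every group compared had received DRB for 4 h according to the labels and methods (the study's results section gives 3 h), the drug had been washed off 5 min before harvest, and 4sU was in the medium before harvest. The study calls the 3 samples of each group biological replicates, and p-values measure the spread between these samples.

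DRB inhibits the kinase CDK9 of P-TEFb, which phosphorylates the polymerase and its pausing factors, and so holds RNAPII near promoters. When DRB is washed off, polymerases enter gene bodies together and the nascent RNA labelled by 4sU ends at a front that moves along each gene. A polymerase that takes longer over a stretch of gene, pauses included, leaves that front nearer to the start. Each boundary says how far from its start, in steps of 100 bases, the wave of a transcript had ended, and it is not a read count, so the depth behind each value is unknown.

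The codon that separates the genotypes lies in exon 14 of Polr2a (ENSMUST00000058470, reverse strand, chromosome 11 of GRCm38). The reference codon is shown because it defines the comparison. It codes for arginine at residue 749 of 1969, and no single base change turns it into a histidine codon. The sequence is given 5′ to 3′ on the coding strand, with codon 749 in capitals (chr11:69743311-69743403).
Polr2a codon 749: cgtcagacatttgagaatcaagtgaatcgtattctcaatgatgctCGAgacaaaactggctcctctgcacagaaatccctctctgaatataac

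Polr2a itself was among the transcripts measured. Its front lay at 15.5, 18.5 and 10.3 kb in the WT/WT samples and at 12.9, 7.6 and 6.4 kb in the slow/slow samples. The groups overlapped in 1 slow/slow sample, which lay above the lowest WT/WT sample, and the difference of -5.80 ± 2.92 kb (SE, n = 3 against 3) did not pass the test across transcripts (limma, Benjamini-Hochberg adjusted p = 0.642). Without WT/WT replicate 2 it was -3.93 kb. The median WT/WT front lay in intron 14, past the codon above, and the median slow/slow front lay in intron 1. The 100 bases up to each of these positions are given on the coding strand, as the step of the map in which the wave ended.
Polr2a, WT/WT front at 15.5 kb (chr11:69743138-69743237): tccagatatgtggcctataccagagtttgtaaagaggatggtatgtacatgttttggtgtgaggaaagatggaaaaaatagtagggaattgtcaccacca
Polr2a, slow/slow front at 7.6 kb (chr11:69751038-69751137): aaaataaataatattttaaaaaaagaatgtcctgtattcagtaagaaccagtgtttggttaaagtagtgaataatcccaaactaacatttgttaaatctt

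Of the 6 samples, WT/WT replicate 2 stood apart from the others. Its median front was 15.9 kb, against 7.7 and 9.2 kb in the other WT/WT samples and 7.6 to 10.1 kb in the slow/slow samples. Differences between the groups are therefore also given without this sample, beside the values of each sample. Boundaries were called in 83.2 to 86.8% of transcripts of at least 20 kb in each of the 6 samples, and ranged from 0.2 to 58.3 kb. Over the transcripts compared, Spearman's rho between samples of a group was 0.374 to 0.464 in WT/WT cells and 0.417 to 0.446 in slow/slow cells, across transcripts that share genes. Between samples of different genotype it was 0.227 to 0.557, and the highest value of all pairs was that of WT/WT replicate 2 with slow/slow replicate 2. The single value 2.5 kb was the most common boundary, and transcripts with it are counted apart. Each of the 6 boundaries was above 2.5 kb in 13483 transcripts of 5296 genes, and at least 1 was at or under it in 12507. The tables hold no RNA levels, and presence of boundaries did not tell ESC from neuronal markers, so the ESC identity could not be examined. A boundary in at least 1 of the 6 samples was found for 10 of 12 ESC and 9 of 10 neuronal markers. The same held for 3 of 8 neural progenitor, 2 of 8 fibroblast and 5 of 8 endodermal markers. A transcript with each boundary above 2.5 kb was found for 1 ESC, 1 neuronal, 3 neural progenitor, 1 fibroblast and 2 endodermal markers. Only 3 of the 12 ESC markers had a transcript among those of at least 20 kb compared.

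Median wave-fronts did not separate the genotypes. Over the 25990 transcripts the sample medians were 7.7, 15.9 and 9.2 kb in WT/WT cells and 10.1, 9.2 and 7.6 kb in slow/slow cells. The means of these medians were 10.9 ± 4.37 kb and 8.97 ± 1.27 kb (SD, n = 3), a difference of -1.97 kb that was within the spread between samples (exact two-sided permutation test over samples, p = 0.7, where 0.1 is the smallest p that 3 against 3 allows). The direction rested on WT/WT replicate 2: without it the slow/slow mean was 0.517 kb higher. In the 13483 transcripts with each boundary above 2.5 kb, the sample medians were 10.6, 18.8 and 12 kb in WT/WT cells and 11.9, 10.7 and 9.1 kb in slow/slow cells. The difference was -3.23 kb (exact permutation p = 0.4), and -0.733 kb without WT/WT replicate 2.

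The farthest fronts did separate. At the 90th percentile of the 13483 transcripts, the front lay at 21.3, 23.7 and 22.5 kb in WT/WT cells and at 17.7, 13.8 and 19.2 kb in slow/slow cells. Every slow/slow sample lay below every WT/WT sample, with a difference of -5.60 kb (22.5 ± 1.20 against 16.9 ± 2.79 kb, SD, n = 3) that was -5.0 kb without WT/WT replicate 2. At the 75th percentile the samples again did not overlap, with 14.8, 21 and 15.8 kb in WT/WT and 14.1, 12.4 and 11.6 kb in slow/slow cells, a difference of -4.50 kb, or -2.60 kb without WT/WT replicate 2. At the 25th percentile the values overlapped (7.0, 15.7 and 8.5 kb in WT/WT, 9.6, 8.8 and 7.0 kb in slow/slow), as they did at the 10th (4.4, 11.1 and 5.6 kb against 7.1, 6.7 and 5.2 kb). The exact permutation p was 0.1 at the 75th and the 90th percentile, the smallest the design allows, and 0.9 at the 10th and the 25th. These 5 percentiles, and the shares and ranges that follow, were chosen after the data were seen, so the tests describe the samples and do not stand as independent support.

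**Figure D1:**
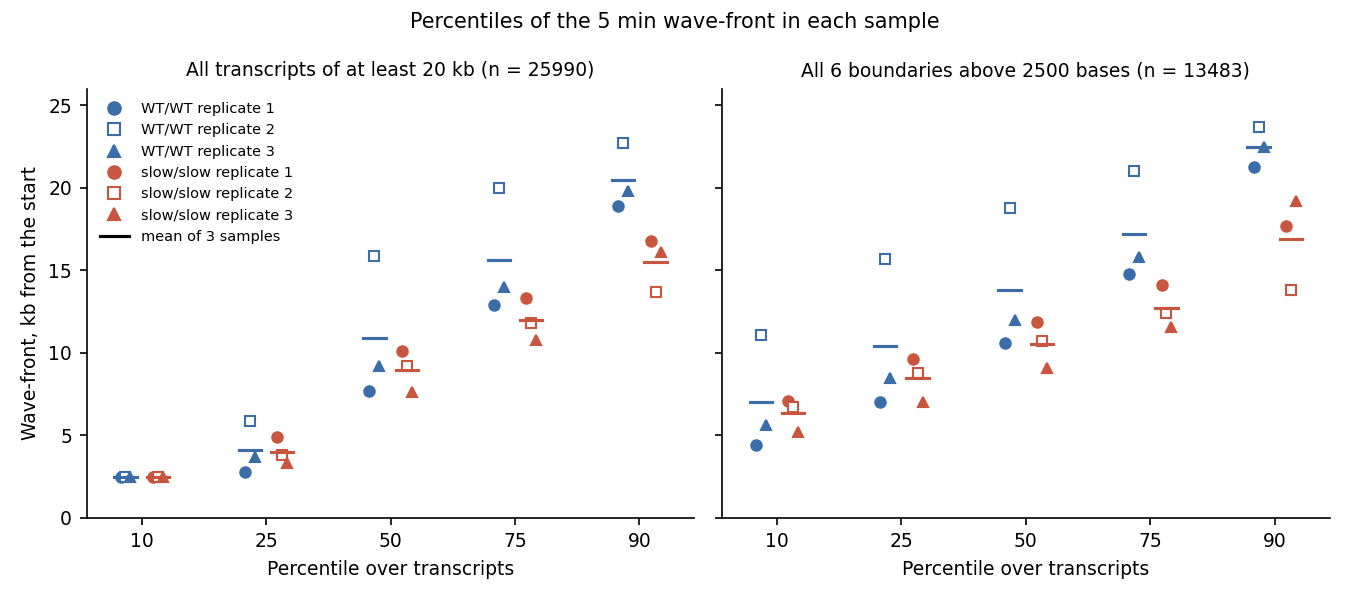
Wave-front in kb from the start (y axis) at the 10th, 25th, 50th, 75th and 90th percentile over transcripts (x axis), in each WT/WT (blue) and slow/slow (red) sample at 5 min; short lines are means of 3 samples. WT/WT replicate 2 (open blue squares) is the highest at every percentile from the 25th up, and at the 90th percentile the 3 slow/slow samples lie below the 3 WT/WT samples in both panels.

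The same pattern appeared in shares of long fronts. Fronts beyond 15 kb made up 24, 77.8 and 28.6% of the 13483 transcripts in the WT/WT samples and 18, 7.11 and 13.2% in the slow/slow samples. No slow/slow sample reached a WT/WT sample, and the difference was -30.7 percentage points, or -13.5 without WT/WT replicate 2 (exact permutation p = 0.1). Beyond 25 kb the shares were 6.30, 8.59 and 7.74% in WT/WT and 3.74, 1.79 and 6.20% in slow/slow cells, again without overlap, a difference of -3.63 points, or -3.11 without WT/WT replicate 2. Beyond 10 kb the samples overlapped, from 54.0 to 92.0% in WT/WT and from 39.7 to 70.9% in slow/slow cells (-13.4 points, or -2.42 without WT/WT replicate 2). The fronts of slow/slow cells were also closer together within a sample: the interquartile range was 4.5, 3.6 and 4.6 kb in slow/slow and 7.8, 5.3 and 7.3 kb in WT/WT cells, a difference of -2.57 kb, or -3.32 kb without WT/WT replicate 2. Over all 25990 transcripts, those at 2.5 kb included, the 90th percentile lay at 18.9, 22.7 and 19.8 kb in WT/WT and at 16.8, 13.7 and 16.1 kb in slow/slow cells, also without overlap (-4.93 kb, or -3.82 kb without WT/WT replicate 2), whereas at the 75th percentile slow/slow replicate 1 (13.3 kb) lay above WT/WT replicate 1 (12.9 kb) and the difference of -3.67 kb was -1.48 kb without WT/WT replicate 2.

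A front cannot lie beyond the end of its transcript, so the comparison was repeated in 5 length classes. Median fronts were lower in slow/slow cells by the group means in each class, and in none of them did the samples separate. The differences over all transcripts were -1.33 kb for 20 to 30 kb (5431 transcripts), -1.93 kb for 30 to 60 kb (9124), -2.63 kb for 60 to 100 kb (4829), -2.57 kb for 100 to 200 kb (3821) and -1.57 kb for 200 kb or more (2785). Exact permutation p-values over samples were 0.5 to 0.9. Without WT/WT replicate 2 these differences became 0.767, 0.7, 0.15, -0.0667 and -0.217 kb, so that the sign turned in the 3 shorter classes. Where each boundary was above 2.5 kb, the differences were -2.70, -3.20, -3.80, -3.62 and -2.93 kb in the same order, with exact p-values of 0.2 to 0.5, and -0.25, -0.60, -1.23, -1.22 and -0.667 kb without WT/WT replicate 2.

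**Figure D2:**
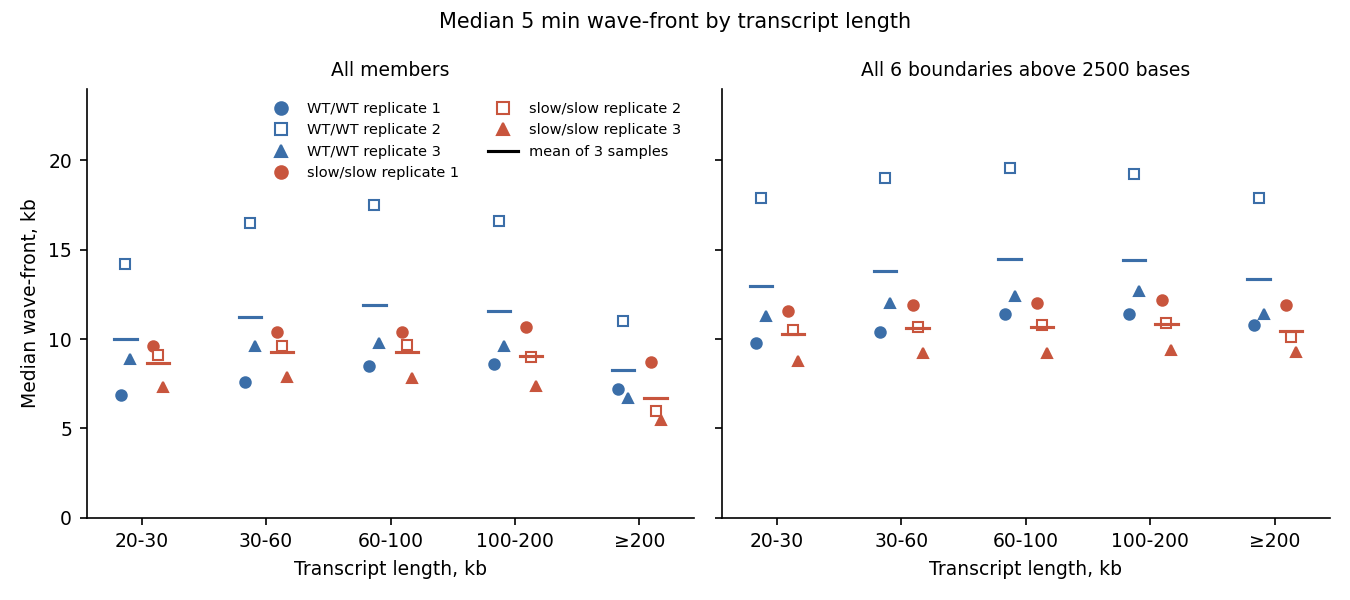
Median wave-front in kb (y axis) of each WT/WT (blue) and slow/slow (red) sample in 5 classes of transcript length in kb (x axis), for all transcripts (left) and those with each boundary above 2500 bases (right); short lines are means of 3 samples. WT/WT replicate 2 (open blue squares) lies above all other samples in every class, and the other WT/WT samples overlap the slow/slow samples.

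The 75th percentile of the fronts above 2.5 kb separated the genotypes in 4 of the 5 length classes. For transcripts of 60 to 100 kb (2725) it was 16.3, 21.7 and 16.4 kb in WT/WT and 14.3, 12.5 and 12 kb in slow/slow cells, a difference of -5.20 kb, or -3.42 kb without WT/WT replicate 2. For 100 to 200 kb (1972) it was 16.1, 21.5 and 18.6 kb against 14.5, 12.6 and 13.1 kb, and for 200 kb or more (1019) 15.4, 20.6 and 17.3 kb against 14.1, 12 and 14.4 kb. For 30 to 60 kb (4948) the WT/WT values of 14.8, 21.2 and 15.5 kb also lay above those of slow/slow cells, 14, 12.3 and 11.4 kb. In the class of 20 to 30 kb (2819) the groups overlapped, with 12.9, 19.8 and 14.5 kb in WT/WT and 13.9, 12.2 and 10.9 kb in slow/slow cells. Without WT/WT replicate 2 the differences were -1.37, -2.58, -3.42, -3.95 and -2.85 kb from the shortest class to the longest. The 90th percentile separated the genotypes in transcripts of 30 to 60 kb (-6.54 kb, or -5.70 without WT/WT replicate 2) and 60 to 100 kb (-7.62 kb, or -5.96) only. It did not do so in transcripts of 200 kb or more, where it was 22.2, 24.4 and 29.6 kb in WT/WT and 21, 14 and 29.1 kb in slow/slow cells.

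Boundaries at 2.5 kb were about as frequent in both genotypes. They made up 22.9, 16.6 and 19.2% of the boundaries in the WT/WT samples and 17.6, 20.5 and 21.1% in the slow/slow samples (19.6 ± 3.13% and 19.7 ± 1.89%, SD, n = 3), a difference of 0.177 percentage points (exact permutation p = 1.0), or -1.30 points without WT/WT replicate 2. In the longest class, 200 kb or more, the shares were 27.9, 26.5 and 30.7% in WT/WT and 29.3, 36.9 and 34.9% in slow/slow cells, a difference of 5.33 points with overlap in slow/slow replicate 1 (exact permutation p = 0.2), or 4.42 points without WT/WT replicate 2. In the shortest class they were 24.6, 18.5 and 18.4% against 17, 18.4 and 19.1% (-2.32 points, or -3.31 without WT/WT replicate 2). Between 0.627 and 0.989% of the boundaries of a sample lay below 2.5 kb. No sample was at 2.5 kb in 13676 transcripts, each of the 6 was in 662, 190 were at 2.5 kb in each WT/WT sample and in no slow/slow sample, and 282 in each slow/slow sample and in no WT/WT sample.

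**Figure D3:**
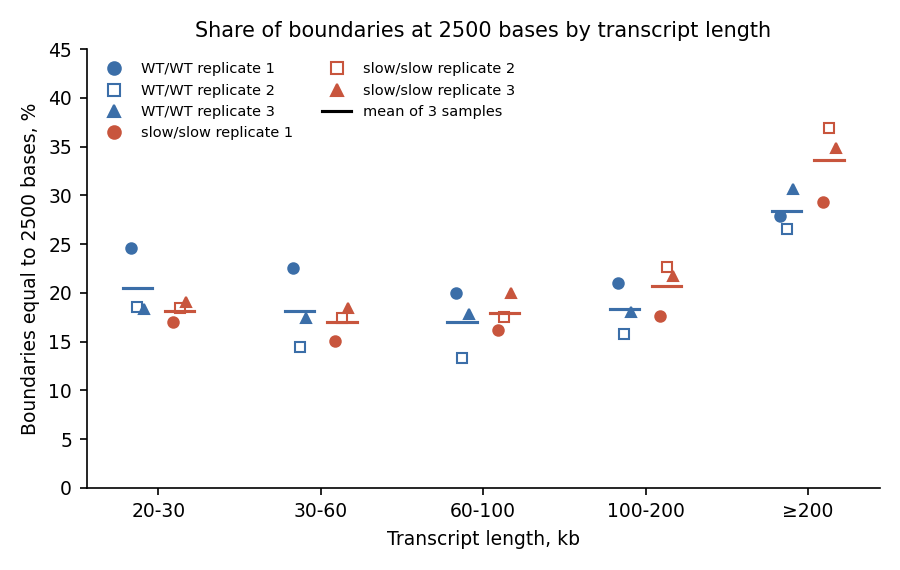
Share of boundaries equal to 2500 bases in percent (y axis) of each WT/WT (blue) and slow/slow (red) sample in 5 classes of transcript length in kb (x axis); short lines are means of 3 samples. Shares lie between 13.4 and 24.6% in the 4 shorter classes and between 26.5 and 36.9% in the class of 200 kb or more, and the genotypes overlap in each class.

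To sort transcripts by a measure that neither group had contributed to, the median front of the 3 WT/slow samples was used. Among all 1179 transcripts whose WT/slow front was over 20 kb, the groups overlapped, with sample medians of 11, 21.8 and 12.8 kb in WT/WT and 12.6, 11.9 and 10.5 kb in slow/slow cells (-3.53 kb, exact permutation p = 0.4, or -0.233 kb without WT/WT replicate 2). In the 832 of them with each WT/WT and slow/slow boundary above 2.5 kb, the sample medians were 13.1, 22.3 and 13.9 kb in WT/WT and 13.0, 12.4 and 11.3 kb in slow/slow cells, a difference of -4.18 kb without overlap (exact permutation p = 0.1). WT/WT replicate 1 and slow/slow replicate 1 were only 0.1 kb apart there, and without WT/WT replicate 2 the difference was -1.24 kb. Among the 2638 above 2.5 kb whose WT/slow front was over 5 and up to 10 kb, the medians were 9.3, 16.2 and 9.8 kb against 10.9, 9.3 and 8.0 kb, and the groups overlapped. The difference was -1.50, -2.03, -2.37, -3.17, -3.67 and -4.18 kb from the class with the shortest WT/slow fronts to that with the longest, and -0.467, -0.267, -0.15, -0.817, -1.07 and -1.24 kb without WT/WT replicate 2. The WT/slow samples themselves had median fronts of 7.8, 12.7 and 9.2 kb over the 25384 transcripts with a boundary in all 9 samples, beside 7.7, 15.9 and 9.2 kb in WT/WT and 10.1, 9.2 and 7.6 kb in slow/slow cells, and WT/slow replicate 2 was the highest of its group.

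**Figure D4:**
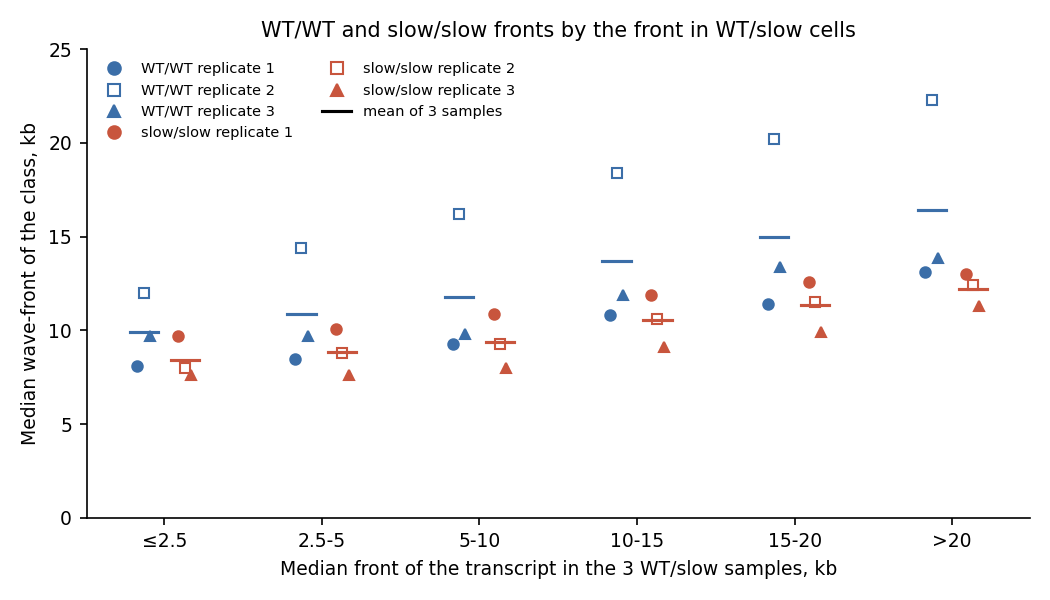
Median wave-front in kb (y axis) of each WT/WT (blue) and slow/slow (red) sample in classes of transcripts set by their median front in the 3 WT/slow samples (x axis, kb), with each of the 6 boundaries above 2500 bases; short lines are means of 3 samples. In the class over 20 kb the slow/slow samples, at 11.3 to 13.0 kb, lie below the WT/WT samples, at 13.1 to 22.3 kb, and in the other classes the genotypes overlap.

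Over all transcripts, medians were shorter in both genotypes where the start lay inside the gene, and more of those boundaries were at 2.5 kb. Transcripts that start within 1 kb of the first annotated start of their gene (18533) had median fronts of 8.7, 17.2 and 10.2 kb in WT/WT and 10.9, 9.8 and 8.2 kb in slow/slow cells, a difference of -2.40 kb that turned to 0.183 kb without WT/WT replicate 2. Those that start over 5 kb inside the gene (5921) had 4.1, 7.7 and 4.9 kb against 4.7, 4.6 and 4.1 kb (-1.10 kb, or -0.0333 kb without WT/WT replicate 2). At 2.5 kb were 31.2 to 39.7% of their boundaries, against 11.5 to 17.9% for the first starts. With each boundary above 2.5 kb the 2 classes lay close. First starts (11245) had 10.7, 18.9 and 12.1 kb in WT/WT and 12, 10.7 and 9.2 kb in slow/slow cells. Starts inside the gene (1396) had 9.8, 17.8 and 11 kb against 11.4, 10.3 and 8.9 kb. Long intergenic non-coding RNAs (500 transcripts) had medians of 4.0, 6.1 and 4.55 kb in WT/WT and 4.45, 4.1 and 4.5 kb in slow/slow cells (-0.533 kb, or 0.075 kb without WT/WT replicate 2), and 35.6 to 40.8% of their boundaries were at 2.5 kb, against 15 to 21.4% in protein-coding transcripts. The 381 antisense transcripts had medians of 4.1, 5.4 and 4.8 kb in WT/WT and 4.7, 4.7 and 5.0 kb in slow/slow cells, a difference of 0.0333 kb (exact permutation p = 1.0), or 0.35 kb without WT/WT replicate 2. In the 109 of them with each boundary above 2.5 kb, the slow/slow medians, 8.3, 8.9 and 8.1 kb, lay below those of WT/WT cells, 10.1, 12.9 and 10.3 kb, and differed by -2.67 kb, or -1.77 kb without WT/WT replicate 2. Classes of equal size by first intron length, GC content of the sequence and number of exons had differences of -2.90 to -3.57 kb above 2.5 kb, or -0.5 to -1.05 kb without WT/WT replicate 2, and did not separate the genotypes. With each boundary above 2.5 kb, 49.7, 35.6 and 47.7% of fronts lay in the first intron in WT/WT and 47.6, 50.4 and 53.0% in slow/slow cells, and 2.19 to 3.18% lay in exons.

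Transcript by transcript, the mean of the slow/slow samples was lower than that of the WT/WT samples in 66.8% of the 25990 transcripts and in 77.9% of those with each boundary above 2.5 kb. Without WT/WT replicate 2 these shares were 49.7% and 55.7%. Every slow/slow sample lay below every WT/WT sample in 3082 transcripts of 1659 genes, 11.9% of the 25990, and above in 624 of 424 genes, 2.4%. These counts depended on the WT/WT samples: without replicate 2 they were 3728 (14.3%) and 2547 (9.8%). Without replicate 1 they were 6707 (25.8%) and 870 (3.35%), and without replicate 3 they were 5519 (21.2%) and 962 (3.70%). With each boundary above 2.5 kb, 2188 of 13483 transcripts lay below without overlap (16.2%, 1176 genes) and 143 above (1.06%, 100 genes). Without WT/WT replicate 2 the counts were 2338 (17.3%) and 1344 (9.97%), so that the higher side grew more than 9-fold. Leaving out any sample can only keep or raise such counts. Growth in them is therefore not in itself a sign of further transcripts that differ. The 2188, chosen by this difference, had a median WT/WT front of 17.4 kb and a median slow/slow front of 9.70 kb. The share without overlap on the lower side was 13.3% in transcripts of 20 to 30 kb and 15.2 to 17.9% in the longer classes, or 14.3% and 16.6 to 18.8% without WT/WT replicate 2.

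The test of single transcripts had little reach at this error. Limma, fitted to the 29924 transcripts of any length with 6 boundaries that were not all equal, called 15 transcripts of at least 20 kb lower in slow/slow cells (0.0592% of the 25325 tested) and 1 higher (0.00395%) at an adjusted p under 0.05. No shorter transcript was called, so that these were 0.0501% and 0.00334% of all transcripts in the fit. At an unadjusted p under 0.05 the numbers were 1979 and 344. In simulated boundaries with each transcript's mean and residual standard deviation, none of 200 transcripts lowered by 10 kb was recovered, and 65 of 200 lowered by 20 kb. The simulated errors were normal and independent, without a common value at 2.5 kb or a shift shared by a whole sample, unlike the real boundaries. The count depended on the samples: without WT/WT replicate 2 it was 40 lower and 1 higher, of which 14 were among the 16, and without any other single sample it was 0 in both directions, with 1076 to 3503 lower and 245 to 585 higher at an unadjusted p under 0.05. The median standard deviation of a transcript over 3 samples was 5.06 kb in WT/WT cells (2.69 kb without replicate 2) and 2.69 kb in slow/slow cells. Among transcripts with each boundary above 2.5 kb only, isoforms from the same start site had boundaries over 2 kb apart in 10.7 to 22.2% of 1073 start sites within a sample.

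The 15 lower calls were 7 isoforms of Vps53, 2 of Ankrd6 and 1 each of Epo, Psma8, Wnt7b, Celsr1, D430041D05Rik and Usp40. In Vps53 (ENSMUST00000166752), a subunit of the complexes that tether endosomal vesicles, the front lay at 33.3, 34.1 and 33.6 kb in WT/WT and at 11.4, 9.5 and 12.2 kb in slow/slow cells. The difference was -22.6 ± 1.36 kb (SE, n = 3 against 3; limma, Benjamini-Hochberg adjusted p = 0.0181). In Psma8, a proteasome subunit of the testis, it lay at 36.7, 37.9 and 38.3 kb against 6.2, 9.8 and 7.7 kb (adjusted p = 0.0181), and in Celsr1, a cadherin of planar cell polarity, at 37.3, 39.9 and 37.0 kb against 14, 11.3 and 14.1 kb (adjusted p = 0.0229). In all 3 the WT/WT samples agreed within 3 kb and lay more than 20 kb beyond the slow/slow samples. The front of Wnt7b, a secreted ligand of the Wnt pathway, lay at 26.3, 29.4 and 28.4 kb in WT/WT and at 2.5 kb in each slow/slow sample (adjusted p = 0.0181). In a 50.2 kb transcript annotated to Epo, the erythropoietin gene, the front lay at 31.7, 31.8 and 31.3 kb against 2.5, 2.5 and 2.8 kb. Both median fronts of that transcript lay in its intron 1, so they do not show a wave over the rest of the gene. The front of Ankrd6 lay at 38.8 kb in each WT/WT sample against 5.9, 2.5 and 2.5 kb (adjusted p = 0.0122 for both). In D430041D05Rik it lay at 22.7, 20.1 and 23.6 kb against 0.3 kb in each slow/slow sample (adjusted p = 0.0265), and in Usp40, which encodes a deubiquitinase family member, at 22.5, 22.7 and 24.6 kb against 2.5, 2.6 and 4.6 kb (adjusted p = 0.0329). The single higher call was Tmem241, with 3.7, 4.5 and 2.5 kb in WT/WT and 26.4 kb in each slow/slow sample (adjusted p = 0.0181). The genes in these calls that the rule for named genes left out (Ankrd6, Epo, Wnt7b, D430041D05Rik, Usp40 and Tmem241) were added after their values had been seen. Annotated starts between their fronts were not examined. In Ankrd6 and Tmem241 the higher fronts were equal to the step in all 3 samples. In every call the higher fronts lay beyond the sample medians over all transcripts, at most 15.9 kb in WT/WT and 10.1 kb in slow/slow cells. Whether they mark the released wave was not tested. In limma without WT/WT replicate 2 the adjusted p of Vps53, Psma8 and Celsr1 was 0.042.

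The rule that asked for each boundary above 2.5 kb and no overlap, ordered by p, named 4 more of the genes given here on the lower side, none past the threshold. Tmod3, which caps actin filaments, had fronts of 35.4, 27.6 and 35.1 kb in WT/WT and 8.9, 8.0 and 5.5 kb in slow/slow cells (adjusted p = 0.117, and 0.042 without WT/WT replicate 2). Dsc2, a desmosomal cadherin, had 23.7, 22.9 and 23.5 kb against 9.8, 7.2 and 7.9 kb (adjusted p = 0.076). The transcripts 5530601H04Rik, with 22.6, 22.8 and 22 kb against 7.4, 10.1 and 6.9 kb, and Gm20426, with 31.1, 27.4 and 25.8 kb against 7.1, 9.9 and 5.3 kb, completed the group. In all 7 genes given on this side by the rule the WT/WT mean was over 20 kb. Between the 2 median fronts the annotation has a further start on the same strand in 4 of these 7 genes, in 3 of them of the same gene. The WT/slow fronts of these genes varied, from 6.6, 12.8 and 10.8 kb in Celsr1 to 13.4, 16.2 and 16.9 kb in Vps53 and 6.6, 21.3 and 38.1 kb in Tmod3. In 6 of the 7, all but Tmod3, each WT/slow sample lay below each WT/WT sample. The genes were chosen for WT/WT fronts above the others, so this order is no independent support.

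On the higher side the rule named 8 genes, and none passed the threshold. Dnmt1, the maintenance DNA methyltransferase, had fronts of 6.3, 7.8 and 10.3 kb in WT/WT and 20, 20.7 and 19.3 kb in slow/slow cells (difference 11.9 ± 1.57 kb, SE; adjusted p = 0.167; 11.7 kb without WT/WT replicate 2). Rbms1, which encodes an RNA-binding protein, had 2.6 kb in each WT/WT sample and 17.7, 18.2 and 16.4 kb in slow/slow cells (adjusted p = 0.0603), so that its WT/WT fronts lay 1 step above the value counted apart. Evi5, with 9.5, 6.2 and 7.9 kb against 19.7, 17.8 and 17.7 kb, and Lrp2, which encodes the endocytic receptor megalin, with 6.2, 13.8 and 7.2 kb against 31.7, 20.7 and 30.4 kb, showed the same order. In Myom1, a component of the sarcomere, the fronts were 4.9, 3.9 and 6.8 kb against 12.7, 13.8 and 13.1 kb. The fronts were 3.1, 3.1 and 4.4 kb against 10.8, 10.3 and 10.8 kb in Emid1, 3.6, 4.3 and 4.0 kb against 14.8, 16.0 and 10.3 kb in Popdc3, and 8.5, 8.7 and 7.9 kb against 16.6, 13.1 and 17 kb in Eva1c. In 1 of the 8 genes, Rbms1, an annotated start lies between the median fronts. Each WT/slow sample lay above each WT/WT sample in Evi5, Emid1, Myom1 and Eva1c, but not in Dnmt1, Rbms1, Popdc3 and Lrp2.

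**Figure D5:**
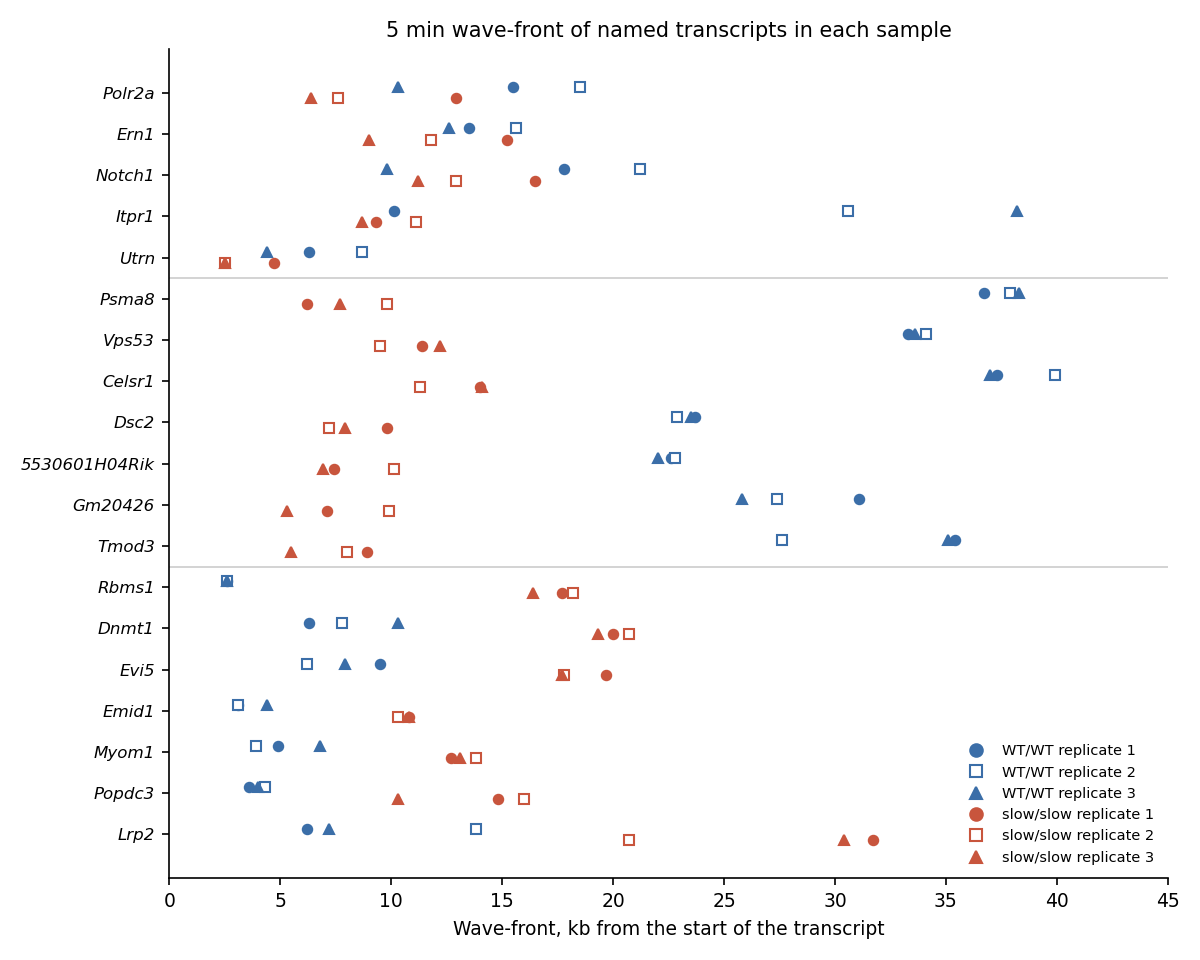
Wave-front in kb from the start (x axis) of 19 named transcripts (rows) in each WT/WT (blue) and slow/slow (red) sample; the upper block holds genes that the study names and Polr2a, the middle block genes with every slow/slow sample below every WT/WT sample, the lower block genes with the reverse, in each case the 7 of smallest p among transcripts with each boundary above 2.5 kb. In the middle block the WT/WT fronts lie between 22 and 39.9 kb and the slow/slow fronts between 5.3 and 14.1 kb.

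The genes that the study names for elongation had overlapping fronts or wide errors at 5 min. These fronts are another measure than the study's own for 3 of them. It followed Itpr1 and Utrn by RT-qPCR of pre-mRNA over a longer time course, and gave Ern1 as an elongation rate. In Notch1, a receptor of cell fate decisions, the longest transcript had 17.8, 21.2 and 9.8 kb in WT/WT and 16.5, 12.9 and 11.2 kb in slow/slow cells (difference -2.73 ± 3.40 kb, SE; adjusted p = 0.837; -0.267 kb without WT/WT replicate 2). In Ern1, a sensor of unfolded proteins, the longest transcript (ENSMUST00000001059) had 13.5, 15.6 and 12.6 kb against 15.2, 11.8 and 9.0 kb (adjusted p = 0.817). In Itpr1, a calcium channel of the endoplasmic reticulum that spans 338 kb, it had 10.1, 30.6 and 38.2 kb against 9.3, 11.1 and 8.7 kb (difference -16.6 ± 7.33 kb, SE; adjusted p = 0.613), with slow/slow replicate 2 above WT/WT replicate 1. In Utrn, which encodes the dystrophin relative utrophin, it had 6.3, 8.7 and 4.4 kb against 4.7, 2.5 and 2.5 kb (adjusted p = 0.657), so that 2 slow/slow samples stood at the value counted apart.

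Functional groups of genes were described with the longest measured transcript of each gene, which for all 8440 genes gave a median difference of -1.93 kb (-0.0833 kb without WT/WT replicate 2). No member of any of the 6 lists was called by limma in either direction, against 5 lower and 0 higher calls among the 8440 transcripts. At an unadjusted p under 0.05 the lists held 1 to 7 lower members, and Dnmt1 was the only higher one, against 679 lower and 125 higher among all 8440. In the elongation machinery (37 of 64 genes measured), the median difference was -2.23 kb (0.0667 kb without WT/WT replicate 2), and 5 members lay below and 0 above without overlap, 13.5% beside 12.2% of all genes. The counts were 5 below and 8 above (21.6%) without WT/WT replicate 2, which left 14.9% of all genes below and 10.4% above. Besides the pair described next, these were Supt6 and Cdc73, which travel with RNAPII (-3.73 and -12.6 kb), and Tcea1, the factor that restarts arrested RNAPII (-6.37 kb), named after their values had been seen. Supt16, a subunit of the histone chaperone FACT, had 14.5, 22.2 and 14.5 kb in WT/WT and 8.5, 10.8 and 9.7 kb in slow/slow cells. Rprd2, a binding partner of the RNAPII tail, had 19.1, 16.1 and 16.6 kb against 14.8, 5.5 and 11.3 kb. Both lay lower without overlap, and Polr2b, the second largest RNAPII subunit, overlapped in 1 sample of each group, with 32.9, 24.4 and 13.1 kb against 13.2, 11.8 and 8.9 kb. Of 7 members with a higher slow/slow mean, the 3 that the rule named overlapped: Ccnt1, the cyclin of P-TEFb, with 5.9, 10.3 and 15.8 kb against 12.6, 15.7 and 11.7 kb; Aff1, the scaffold of the super elongation complex, with 15.4, 15.9 and 19.4 kb against 19.5, 14 and 19.5 kb; and Mnat1, of the CDK-activating kinase, with 7.5, 21.1 and 7.2 kb against 12.5, 11.7 and 12 kb.

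Pluripotency genes and their signalling (45 of 67 measured) had a median difference of -4.10 kb, or -1.20 kb without WT/WT replicate 2. The members in LIF, FGF, BMP and Wnt signalling (34) had -6.18 and -2.46 kb. Of them 8 lay lower without overlap (23.5%, beside 12.2% of all genes) and 0 higher (beside 2.61%). Without WT/WT replicate 2 these were 8 (23.5%, beside 14.9%) and 2 (5.88%, beside 10.4%). Of the 11 pluripotency regulators 0 lay apart in either direction, too few genes to set against the shares of all genes. Axin1, which holds the β-catenin destruction complex together, had fronts of 17, 20.9 and 18.3 kb in WT/WT and 11.1, 10.6 and 7.3 kb in slow/slow cells (adjusted p = 0.331). Sos1, an activator of Ras, had 28.2, 23.8 and 39.5 kb against 12.7, 12.2 and 7.5 kb, and Bmpr2, a BMP receptor, 17.8, 17.2 and 15.1 kb against 12.7, 5.1 and 7.3 kb. All 3 lay lower without overlap. Lin28b, an inhibitor of let-7 maturation, had 5.1, 7.7 and 11.1 kb against 15.1, 10.3 and 5.9 kb. The kinase genes Mtor (13.7, 19.3 and 15.6 kb against 15.5, 11.1 and 43.0 kb) and Gsk3b (4.0, 13.8 and 12.8 kb against 11.1, 12.6 and 7.0 kb) overlapped as well.

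Chromatin regulators (86 of 92 measured) had a median difference of -3.52 kb, or -0.125 kb without WT/WT replicate 2. Without overlap, 10 members lay below (11.6%, beside 12.2% of all genes) and 1 above (1.16%, beside 2.61%). Without WT/WT replicate 2 these were 10 (11.6%, beside 14.9%) and 8 (9.30%, beside 10.4%). The histone deacetylase gene Hdac5 had 22.2, 18.4 and 25.5 kb in WT/WT and 12.9, 11.1 and 10.7 kb in slow/slow cells. The nucleosome remodeller gene Chd8 had 36.1, 30 and 28.7 kb against 24.4, 23.0 and 21.5 kb, and Kmt2a, a histone H3 lysine methyltransferase, 16.9, 19.6 and 13.7 kb against 11, 10.2 and 8.7 kb. These 3 lay lower without overlap. The member above with all 6 samples was Dnmt1. Tet1, which oxidises methylcytosine, had 9.0, 9.2 and 3.1 kb against 17.2, 18.8 and 9.2 kb, so that the groups met at 9.2 kb.

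DNA repair and replication genes (64 of 74 measured) had a median difference of -2.58 kb, which turned to 0.825 kb without WT/WT replicate 2, and 11 members lay below (17.2%, beside 12.2% of all genes) and 0 above (beside 2.61%) without overlap. The counts were 11 below (17.2%, beside 14.9%) and 9 above (14.1%, beside 10.4%) without WT/WT replicate 2. Rev3l, the catalytic subunit of translesion polymerase zeta, had 24.8, 32.6 and 28.0 kb in WT/WT and 13.1, 9.0 and 10.5 kb in slow/slow cells (adjusted p = 0.188). Top3a, a topoisomerase, had 15.2, 16.9 and 16.3 kb against 10.3, 9.6 and 7.1 kb, and Xpc, which recognises damage in nucleotide excision repair, 16.6, 16.3 and 12.3 kb against 8.2, 9.2 and 7.0 kb. In the other direction the groups overlapped in Ercc6, of transcription-coupled repair (7.8, 15 and 7.9 kb against 11.5, 6.8 and 32.0 kb), in the damage kinase gene Atm (6.9, 35.2 and 9.4 kb against 36.4, 9.1 and 33.0 kb) and in the checkpoint gene Topbp1 (6.5, 15.6 and 7.7 kb against 10.4, 12.6 and 12.6 kb).

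Splicing and RNA processing genes (63 of 68 measured) had a median difference of -1.83 kb, which turned to 0.967 kb without WT/WT replicate 2. Without overlap, 3 members lay below (4.76%, beside 12.2% of all genes) and 0 above (beside 2.61%). Without WT/WT replicate 2 these were 3 (4.76%, beside 14.9%) and 10 (15.9%, beside 10.4%). Ptbp2, a splicing repressor, had 33.0, 22.5 and 13.9 kb in WT/WT and 12.3, 12.5 and 9.8 kb in slow/slow cells and was among these 3. The others, named after their values had been seen, were Dicer1, the nuclease that makes mature microRNAs (-10.5 kb), and Snrnp200, a spliceosomal helicase (-2.50 kb). Sf3b3, of the U2 particle, had 13.8, 20.7 and 12.4 kb against 3.9, 12.4 and 9.3 kb, and the kinase gene Prpf4b 9.4, 21.2 and 17 kb against 7.2, 11.2 and 8.8 kb, with a tie and an overlap. Higher slow/slow means came with a wide spread in the splicing regulator gene Nova1 (7.8, 17.7 and 5.7 kb against 36.1, 11.5 and 41.1 kb) and in Stau2, which encodes an RNA transport protein (10.3, 9.8 and 3.2 kb against 17.1, 8.2 and 31.9 kb). Drosha, the nuclease that starts microRNA processing, had 14.6, 21.2 and 15.8 kb against 21.4, 19.7 and 21.6 kb.

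Synaptic and axon guidance genes (77 of 92 measured) are long, with a median of 313 kb, and 30 of the 77 had each boundary above 2.5 kb. Their median difference was -1.93 kb, the same at 2 decimals as that of all genes, or -0.75 kb without WT/WT replicate 2. Without overlap, 6 lay below (7.79%, beside 12.2% of all genes) and 1 above (1.30%, beside 2.61%). Without WT/WT replicate 2 these were 10 (13.0%, beside 14.9%) and 3 (3.90%, beside 10.4%). The member above with all 6 samples was Unc5d, a netrin receptor named after its values had been seen. Its WT/WT boundaries were at 2.5 or 2.6 kb, and its mean difference of 10.9 kb rested on slow/slow replicate 2. Dscaml1, a neuronal adhesion molecule that spans 323 kb, had fronts of 16.1, 16.8 and 14.5 kb in WT/WT and 10.1, 11.2 and 8.8 kb in slow/slow cells (adjusted p = 0.38). The guidance genes Sema6a (12.8, 10.9 and 17.9 kb against 6.2, 6.0 and 6.9 kb) and Epha7 (16.5, 18.3 and 23.8 kb against 14.7, 13.3 and 13.4 kb) lay lower without overlap. The 3 genes named for higher slow/slow means overlapped: Magi1, a synaptic scaffold (10.7, 18.5 and 2.6 kb against 35.6, 11.8 and 38.0 kb), Ncam1, an adhesion molecule (6.8, 11.6 and 6.7 kb against 20.4, 7.5 and 31.2 kb), and Kif5c, a kinesin (8.4, 4.3 and 14.3 kb against 28.9, 14.7 and 11 kb). In Magi1, Ncam1, Nova1 and Stau2 the front of slow/slow replicate 2 was the lowest of its group, and in each of them it lay within the range of the WT/WT samples.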

How the data were processed

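The ends of transcription waves, measured by 4sU-DRB-seq, were compared between 3 WT/WT and 3 slow/slow ESC samples at 5 min. The authors aligned reads to mm10 with Bowtie2 2.2.9 (version from the submitters' processing notes), kept uniquely mapped non-rRNA reads and located the end of the wave with published software. The deposited values are boundaries, distances in bases in steps of 100, which the authors set against the average of the 0 min samples according to the table names. Read numbers are not given, so no counting error can be stated. Files of 30 min were not used, and those of 15 min served 1 comparison.

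From these, transcripts of at least 20 kb with 6 boundaries were kept and named through GENCODE M21 (GRCm38). Sample medians, percentiles and shares were compared by exact two-sided permutation over samples, 20 relabellings. Single transcripts were tested with limma 3.58.1 (R 4.3.3) on boundaries in kb, with Benjamini-Hochberg adjustment at 0.05, and the fit was tested on simulated data. Other steps used Python 3.11.15, NumPy 2.4.6, pandas 2.3.3 and pysam 0.24.0. Named genes were Polr2a and 4 genes of the study; the 8 smallest limma p on each side among transcripts above 2.5 kb without overlap; and up to 3 per direction in each list, among members of at least 20 kb. Of these, 2 genes are not reported here. Transcripts, lists and rules were chosen with earlier results of these data known. Alternatives were other summaries, scales, transcript sets, a replicate block and each sample left out.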

Additional observations from a re-analysis of the deposited data

Results flagged for a closer look

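The genotype difference in medians had opposite signs at 5 and 15 min when boundaries at 2.5 kb were included. It had the same sign at both times when they were set apart. Over 23476 of the transcripts, those with a boundary in all 12 samples, slow/slow minus WT/WT was -1.88 kb at 5 min and 7.33 kb at 15 min, a change of 9.22 kb (exact permutation of the genotypes within each time, 400 relabellings, two-sided p = 0.035). Such relabelling assumes no genotype difference at either time, so the p-values here do not test the change alone. At 15 min the samples did not overlap. The 15 min medians were 3.5, 2.5 and 4.2 kb in WT/WT and 7.7, 11.8 and 12.7 kb in slow/slow cells, so that the WT/WT medians at 15 min lay at or near the value counted apart. They also lay below the WT/WT medians at 5 min, 7.6, 15.5 and 9.1 kb, so they do not show how far the wave had advanced. In the 2931 transcripts with each of the 12 boundaries above 2.5 kb, the change was 1.77 kb (exact permutation p = 0.65), from -3.13 kb at 5 min to -1.37 kb at 15 min. The part of the 2.5 kb boundaries in the first value was not tested.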

How the results depend on the processing

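Leaving out WT/WT replicate 2 turned the median difference over all transcripts (0.517 kb), the classes of 20 to 30 (0.767), 30 to 60 (0.7) and 60 to 100 kb (0.15), and the list medians of DNA repair (0.825), elongation machinery (0.0667) and splicing genes (0.967 kb). Over the 6 samples left out in turn, median differences ranged from -3.58 to 0.517 kb for all transcripts, from -4.83 to -0.733 kb above 2.5 kb, and from -2.88 to 0.767, -3.75 to 0.7, -4.35 to 0.15, -4.07 to -0.0667 and -2.55 to -0.217 kb in the length classes from short to long. List medians ranged from -4.18 to 0.0667 (elongation), -5.22 to -0.125 (chromatin), -4.80 to 0.967 (splicing), -5.50 to -1.20 (pluripotency), -4.81 to 0.825 (DNA repair) and -2.87 to -0.75 kb (synaptic). The difference in the share of boundaries at 2500 bases ranged from -1.30 to 1.82 points, and was -0.410 with 1 transcript per gene and -0.518 with every boundary of a sample. The other alternatives to the median difference over all transcripts kept its sign, except the 10th percentile, at 0 kb.

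Replicate numbers are shared between genotypes, but the study pairs no samples, and the main tests did not pair them. Deviations of same-numbered samples correlated with r = 0.096, 0.135 and 0.057 over the 25990 transcripts. Those of differently numbered samples correlated with r of -0.094 to -0.007, so each sample correlated best with its own number. Whether equal numbers share a batch was not tested. With the replicate block the median difference was -1.97 kb (exact sign-flip p = 0.75, smallest possible 0.25) and limma made 0 calls (1867 lower and 264 higher at an unadjusted p under 0.05).

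Limma's 15 lower and 1 higher calls became 6 and 4 on log2 values, 0 and 0 with a trended robust prior (1193 and 374 at an unadjusted p under 0.05) or fitted only above 2.5 kb (1108 and 60), 13 and 1 fitted from 20 kb, 48 and 27 with transcripts of 6 equal boundaries kept, 6 and 0 with 1 transcript per gene, 12 and 4 with WT/slow samples, and 1 and 1 after division by the sample median, a setting chosen after seeing the data. Leaving out samples gave 0 to 40 lower and 0 to 1 higher. Of 62 named transcripts, 56 kept their direction throughout. Transcripts named for no overlap cannot turn when a sample is left out, so this count was fixed in part by their choice. Notch1 turned after division by the sample median (0.0134 on the log2 scale). With samples left out, Aff1 ranged from -0.15 to 2.60 kb, Ercc6 from -1.08 to 11.5, Gsk3b from -3.07 to 1.83, Mnat1 from -2.23 to 4.72 and Mtor from -2.90 to 13.1 kb. The cause of these changes was not tested. The 3 samples a group and boundaries without read numbers limit every value.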
